A study of Rattus norvegicus with 4 samples.

Results

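Messenger RNA was measured for 36 genes of the synapse, those of the synaptic vesicle and its release machinery, the active zone, synaptic adhesion and the postsynaptic scaffold, in rat retinal neurospheres, which are floating spheres of cells grown from dissociated retina. Cells from the retina of Sprague Dawley embryos of embryonic day 18 were raised in epidermal growth factor (EGF) to which endothelial cell conditioned medium was added, or in EGF alone. Both conditions held EGF, and the cells came from pooled embryos. The spheres were grown from dissociated retina, so neither condition isolates a single retinal cell type. Each condition had 2 Affymetrix arrays, labelled as biological replicates, and the series description names a further pool of embryos for the replicate of both conditions. The p-values rest on these 4 samples, and the number of arrays limits their precision. Most of each gene's variance estimate came from the other genes. On the values as deposited it came wholly from a trend fitted over all genes.

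The 36 genes were taken by name, and each was represented by its brightest probe set, chosen by the mean of the 4 arrays among probe sets that the platform annotates with exactly 1 symbol. Of the 36 genes, 35 had such a probe set, out of 14217 genes on the array, and Erc2 had none. The genes were tested when this mean reached 4.77 log2, the limit below which the dimmest 30% of all probe sets lay, which kept 34 of them among 11491 genes. Rims1, at a mean of 3.91 log2, lay outside this limit and was not tested. Slc17a6 at 4.80 log2 and Syn2 at 4.85 log2 lay just inside it. As deposited, the condition means of both were above it only with conditioned medium, at 5.23 log2 for Slc17a6 and 5.37 log2 for Syn2. In EGF alone these means were 4.36 and 4.32 log2, although EGF replicate 2 read 4.87 log2 for Slc17a6.

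A nerve terminal releases transmitter when a vesicle fuses with the presynaptic membrane, driven by SNARE proteins on the 2 membranes and triggered by calcium sensors. Large scaffold proteins of the active zone hold vesicles near calcium channels, and adhesion proteins join the terminal to a postsynaptic scaffold that holds receptors. Most neurons of the retina form conventional synapses, while photoreceptors and bipolar cells release glutamate at ribbon synapses, which use several of the same proteins but lack synapsins. Many of these genes are switched on as retinal neurons mature and extend their processes.

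Of the 34 tested genes, 9 fell with conditioned medium and 0 rose. The 9 were Snap25, Napb, Syp, Sv2b, Slc17a7, Syn1, Rab3a, Sncb and Bsn. On quantile normalized values their levels were 1.65-fold to 2.08-fold lower than in EGF alone. As deposited, conditioned medium minus EGF alone ran from -0.64 to -0.41 log2. All 9 had presynaptic roles other than adhesion, as did 28 of the 34 tested genes. A gene was called risen or fallen only when it passed limma's adjusted p of 0.05 in the same direction under 3 scalings of the arrays: as deposited, median-centred and quantile normalized. Over all 11491 genes, 1.78% fell and 9.12% rose by this rule, while 26.5% of the synapse genes fell. On quantile normalized values alone, 17 of the 34 genes were lower with conditioned medium and 0 were higher, while among all genes 14.6% were lower and 16.4% higher. The 2 arrays of conditioned medium both lay below the 2 arrays of EGF alone for 22 genes (64.7%) and above them for 5 genes (14.7%), where 32.6% of all genes lay wholly below and 33.6% wholly above. The genes were picked with earlier results of these arrays known, so their count is a description and not independent evidence of a direction.

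The scaling mattered because the deposited arrays were not on a common level. Taken over all probe sets, the median level was 6.84 and 6.56 log2 with conditioned medium, against 6.03 and 6.25 log2 in EGF alone. The median difference, conditioned medium minus EGF alone, was -0.53 log2 over the 34 synapse genes on quantile normalized values, against 0.00 over all genes. It was -0.12 as deposited, against 0.40 over all genes, and -0.69 with median-centred arrays, against -0.16 over all genes. Among all genes called, 53.1% were higher with conditioned medium on quantile normalized values, 95.8% as deposited and 24.1% with median-centred arrays. Unless called deposited, levels and differences below are quantile normalized log2 values, differences are conditioned medium minus EGF alone with limma's standard error, and p-values are limma's, adjusted by Benjamini-Hochberg over all 11491 genes.

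The 9 falls were a narrow call under the deposited scale. With the replicate number as a block, on the inference that samples of the same number share a pool of embryos, 0 of the 9 passed under all 3 scalings, but all 9 passed on quantile normalized and on median-centred values and none as deposited, where the adjusted p ran from 0.0886 to 0.266 in limma. Without conditioned-medium replicate 1, 3 of the 9 still passed under all 3 scalings (Snap25, Syp and Slc17a7). Snap25 was the 1 gene that passed without conditioned-medium replicate 2, and likewise without EGF replicate 1. Without EGF replicate 2 none of the 9 passed and Syngr3 did instead. On quantile normalized values, 7 of the 9 passed without conditioned-medium replicate 1 (all but Sv2b and Sncb) and 9 of 9 passed in each of the other 3 cases.

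**Figure D1:**
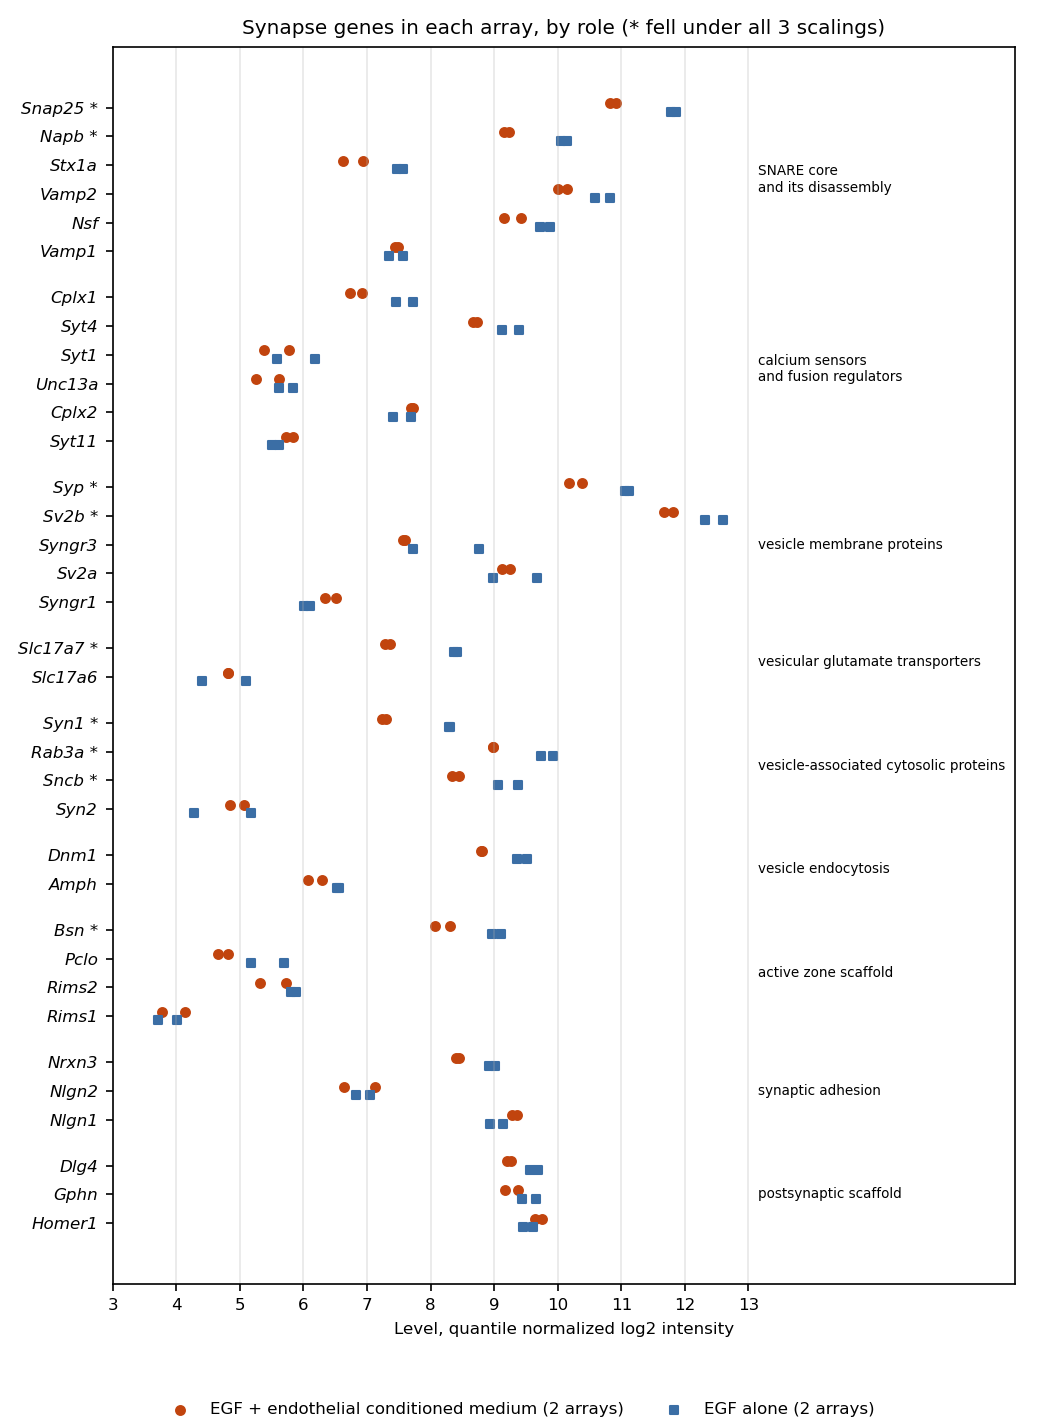
Level of the 35 synapse genes with a probe set in each of the 4 arrays, as quantile normalized log2 values, with circles for conditioned medium, squares for EGF alone and the genes grouped by role (Rims1 was not tested). Both conditioned-medium arrays lie below both EGF arrays for 22 tested genes and above them for 5.

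The core SNARE proteins that fuse the vesicle with the plasma membrane, and the proteins that take them apart again, numbered 6. Of these, 2 fell and 5 were lower on quantile normalized values. Beside the counts of this and the following roles, 1.78% of all genes fell and 14.6% were lower on that scale. Snap25, the plasma-membrane SNARE of nerve terminals, read 10.83 and 10.91 log2 with conditioned medium, against 11.78 and 11.86 log2 in EGF alone. Replicates of a condition lay close together and the groups did not overlap. The difference was -0.95 ± 0.07 (limma, adjusted p = 6.63e-06), a 1.93-fold lower level, and -0.64 as deposited (adjusted p = 4.96e-04). Napb, the neuronal adaptor that brings the disassembly ATPase to spent SNARE complexes, read 9.16 and 9.24 log2 with conditioned medium, against 10.15 and 10.05 log2 in EGF alone. Its groups did not overlap, and the difference was -0.90 ± 0.08 (limma, adjusted p = 2.99e-05).

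Snap25's partners went the same way on quantile normalized values without passing as deposited. Stx1a, the syntaxin that pairs with it in the plasma membrane, read 6.63 and 6.94 log2 with conditioned medium, against 7.57 and 7.47 log2 in EGF alone, a difference of -0.74 ± 0.15 (limma, adjusted p = 0.0032) that was -0.25 as deposited. Vamp2, the main vesicle SNARE of the forebrain, read 10.15 and 10.01 log2 with conditioned medium, against 10.58 and 10.83 log2 in EGF alone, a difference of -0.62 ± 0.10 (limma, adjusted p = 6.44e-04). Nsf, the ATPase that separates SNARE complexes, differed by -0.51 ± 0.11 (limma, adjusted p = 0.00443). For each of these 3 genes both conditioned-medium arrays lay below both EGF arrays. Vamp1, the other vesicle SNARE of nerve terminals, was the exception: it read 7.44 and 7.49 log2 with conditioned medium, against 7.34 and 7.56 log2 in EGF alone, and its groups overlapped.

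The calcium sensors and fusion regulators, 6 genes, held no gene that fell. Of them, 2 were lower on quantile normalized values, namely Syt4, an atypical synaptotagmin, and Cplx1, a complexin that clamps and then promotes SNARE-driven fusion. Syt4 read 8.66 and 8.73 log2 with conditioned medium, against 9.12 and 9.39 log2 in EGF alone (limma, adjusted p = 0.00246). Cplx1 read 6.74 and 6.92 log2 with conditioned medium, against 7.46 and 7.73 log2 in EGF alone (limma, adjusted p = 0.00238). Neither gene's groups overlapped, and neither passed as deposited, where the differences were -0.21 for Syt4 and -0.29 for Cplx1.

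The remaining 4 regulators were not called on quantile normalized values. Cplx2, the other conventional complexin, read 7.72 and 7.70 log2 with conditioned medium, against 7.69 and 7.41 log2 in EGF alone, a difference of 0.16 ± 0.13. Syt11, a synaptotagmin that does not bind calcium, read 5.83 and 5.73 log2 with conditioned medium, against 5.61 and 5.51 log2 in EGF alone, a difference of 0.22 ± 0.21. These 2 genes were higher in both conditioned-medium arrays and passed as higher on deposited values only (limma, adjusted p = 0.0203 for Cplx2 and 0.0338 for Syt11). Syt1, the calcium sensor of fast release, and Unc13a, the priming factor that readies docked vesicles, were dim, with differences of -0.30 ± 0.26 and -0.29 ± 0.23, and the groups of both overlapped. Differences near these values could not be resolved at such low signal.

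Among the 5 proteins of the vesicle membrane, Syp and Sv2b fell. Syp, synaptophysin, the most used marker of synaptic vesicles, read 10.38 and 10.18 log2 with conditioned medium, against 11.06 and 11.12 log2 in EGF alone. Both conditioned-medium arrays were lower by more than the gap between them, and the difference was -0.81 ± 0.08 (limma, adjusted p = 5.20e-05; -0.50 as deposited, adjusted p = 0.0109). Sv2b, a vesicle glycoprotein found in many glutamatergic terminals including those of photoreceptors, read 11.67 and 11.81 log2 with conditioned medium, against 12.60 and 12.32 log2 in EGF alone. Its groups did not overlap either, and the difference was -0.72 ± 0.09 (limma, adjusted p = 1.76e-04; -0.41 as deposited, adjusted p = 0.0229).

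The other 3 vesicle membrane genes were not called. Sv2a, the widely expressed form of the same glycoprotein, read 9.12 and 9.25 log2 with conditioned medium, against 9.67 and 8.98 log2 in EGF alone, so that the EGF arrays lay on both sides of the others. Syngr3, a synaptogyrin, read 7.60 and 7.56 log2 with conditioned medium, against 8.76 and 7.73 log2 in EGF alone. Its difference of -0.66 ± 0.25 (limma, adjusted p = 0.0645) passed with median-centred arrays and, on quantile normalized values, with the replicate block (adjusted p = 0.0262), and EGF replicate 1 stood above the other 3 arrays. Syngr1, a relative of it on the same vesicles, read 6.34 and 6.51 log2 with conditioned medium, against 6.10 and 6.01 log2 in EGF alone, a difference of 0.37 ± 0.18 (limma, adjusted p = 0.137). It was the largest positive difference among the 34 genes, and it passed on deposited values only (0.96, adjusted p = 0.00627).

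Of the transporters that load glutamate into vesicles, 2 were measured, and 1 fell. Slc17a8, a further vesicular glutamate transporter, had no probe set with exactly 1 symbol. Slc17a7, the vesicular glutamate transporter of photoreceptors and bipolar cells in the mature retina, read 7.29 and 7.37 log2 with conditioned medium, against 8.37 and 8.41 log2 in EGF alone. The groups lay far apart relative to their own spread, with a difference of -1.06 ± 0.11 (limma, adjusted p = 5.49e-05), or 2.08-fold lower, which was -0.64 as deposited (adjusted p = 0.0083). Slc17a6, the transporter of retinal ganglion cells, read 4.81 and 4.82 log2 with conditioned medium, against 4.41 and 5.09 log2 in EGF alone. Its EGF arrays lay on both sides of the others and its signal was near the limit for testing.

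Of the 4 proteins that associate with vesicles from the cytosol, 3 fell. Syn1, synapsin I, which tethers vesicles in the reserve pool of conventional synapses, read 7.24 and 7.30 log2 with conditioned medium, against 8.29 and 8.31 log2 in EGF alone. Replicates differed far less than the conditions, and the difference was -1.03 ± 0.11 (limma, adjusted p = 6.99e-05), or 2.04-fold lower. Rab3a, the small GTPase that marks release-ready vesicles, read 8.98 in both arrays with conditioned medium, against 9.74 and 9.93 log2 in EGF alone, a difference of -0.85 ± 0.09 (limma, adjusted p = 7.14e-05). Sncb, beta-synuclein, a presynaptic relative of alpha-synuclein, read 8.34 and 8.45 log2 with conditioned medium, against 9.38 and 9.06 log2 in EGF alone. The groups of Rab3a and Sncb did not overlap, and Sncb differed by -0.82 ± 0.12 (limma, adjusted p = 4.09e-04). As deposited the 3 differences were -0.61, -0.51 and -0.46. Syn2, synapsin II, read 4.85 and 5.06 log2 with conditioned medium, against 5.17 and 4.28 log2 in EGF alone, and overlapped at low signal.

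Genes of 2 further presynaptic roles were measured. Dnm1, dynamin, which pinches off vesicles during endocytosis, read 8.81 and 8.80 log2 with conditioned medium, against 9.36 and 9.51 log2 in EGF alone, a difference of -0.63 ± 0.09 (limma, adjusted p = 4.98e-04) that was -0.29 as deposited and did not pass there. Amph, amphiphysin, which recruits dynamin, differed by -0.37 ± 0.17 (limma, adjusted p = 0.13). For both genes the conditioned-medium arrays were the lower ones and the groups did not overlap.

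The scaffold of the active zone was tested through 3 genes. Bsn, bassoon, which organises the active zone and anchors the ribbon in photoreceptors, read 8.07 and 8.31 log2 with conditioned medium, against 8.96 and 9.11 log2 in EGF alone. It fell, with groups that did not overlap and a difference of -0.85 ± 0.11 (limma, adjusted p = 2.55e-04; -0.47 as deposited, adjusted p = 0.0338). Pclo, piccolo, its large relative, read 4.65 and 4.82 log2 with conditioned medium, against 5.17 and 5.69 log2 in EGF alone, a difference of -0.69 ± 0.28 (limma, adjusted p = 0.0881). Rims2, which links vesicles to calcium channels, differed by -0.32 ± 0.23. These 2 genes were dim, and although their groups did not overlap they did not pass.

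The adhesion and postsynaptic genes, 6 in all, held no gene that fell, and 2 were lower on quantile normalized values. Their median difference was -0.16 log2 (0.26 as deposited), against -0.63 log2 (-0.23 as deposited) over the 28 tested genes of the roles above. Of those 28 genes, 9 fell and 15 were lower. Over all genes 1.78% fell and 14.6% were lower, so no fall among 6 genes does not mark out the adhesion and postsynaptic roles. The 2 sets were not tested against each other. Nrxn3, though presynaptic, was counted with the adhesion genes. Nrxn3, a neurexin that reaches across the cleft from the presynaptic side, read 8.45 and 8.40 log2 with conditioned medium, against 9.02 and 8.92 log2 in EGF alone (-0.55 ± 0.10, limma, adjusted p = 0.00147). Nlgn1, the neuroligin of excitatory synapses that neurexins bind, read 9.36 and 9.28 log2 with conditioned medium, against 8.93 and 9.14 log2 in EGF alone. Here the conditioned-medium arrays were the higher ones. The difference of 0.28 ± 0.10 just missed the threshold (limma, adjusted p = 0.0521), passed as deposited (0.62, adjusted p = 0.00341), and was 0.59 on the gene's other probe set. Nlgn2, the neuroligin of inhibitory synapses, differed by -0.05 ± 0.18 with overlapping groups.

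On the postsynaptic side, Dlg4, the main scaffold of excitatory postsynapses, which in the retina also lies in photoreceptor terminals, read 9.26 and 9.21 log2 with conditioned medium, against 9.57 and 9.69 log2 in EGF alone. Its groups did not overlap, and the difference of -0.39 ± 0.09 (limma, adjusted p = 0.00577) was -0.07 as deposited. The gene's 3 dimmer probe sets gave -0.08, 0.25 and 0.10, so its call rests on 1 probe set. Homer1, which ties glutamate receptors to that scaffold, read 9.75 and 9.64 log2 with conditioned medium, against 9.46 and 9.61 log2 in EGF alone, a difference of 0.16 ± 0.09. Its conditioned-medium arrays were the higher ones, but its 4 dimmer probe sets ranged from -0.34 to 0.20. Gphn, gephyrin, the scaffold under glycine and GABA receptors, read 9.38 and 9.17 log2 with conditioned medium, against 9.66 and 9.44 log2 in EGF alone, a difference of -0.27 ± 0.10 (limma, adjusted p = 0.0698) that passed with median-centred arrays (-0.51, adjusted p = 0.00399) and, on quantile normalized values, with the replicate block (adjusted p = 0.0438).

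**Figure D2:**
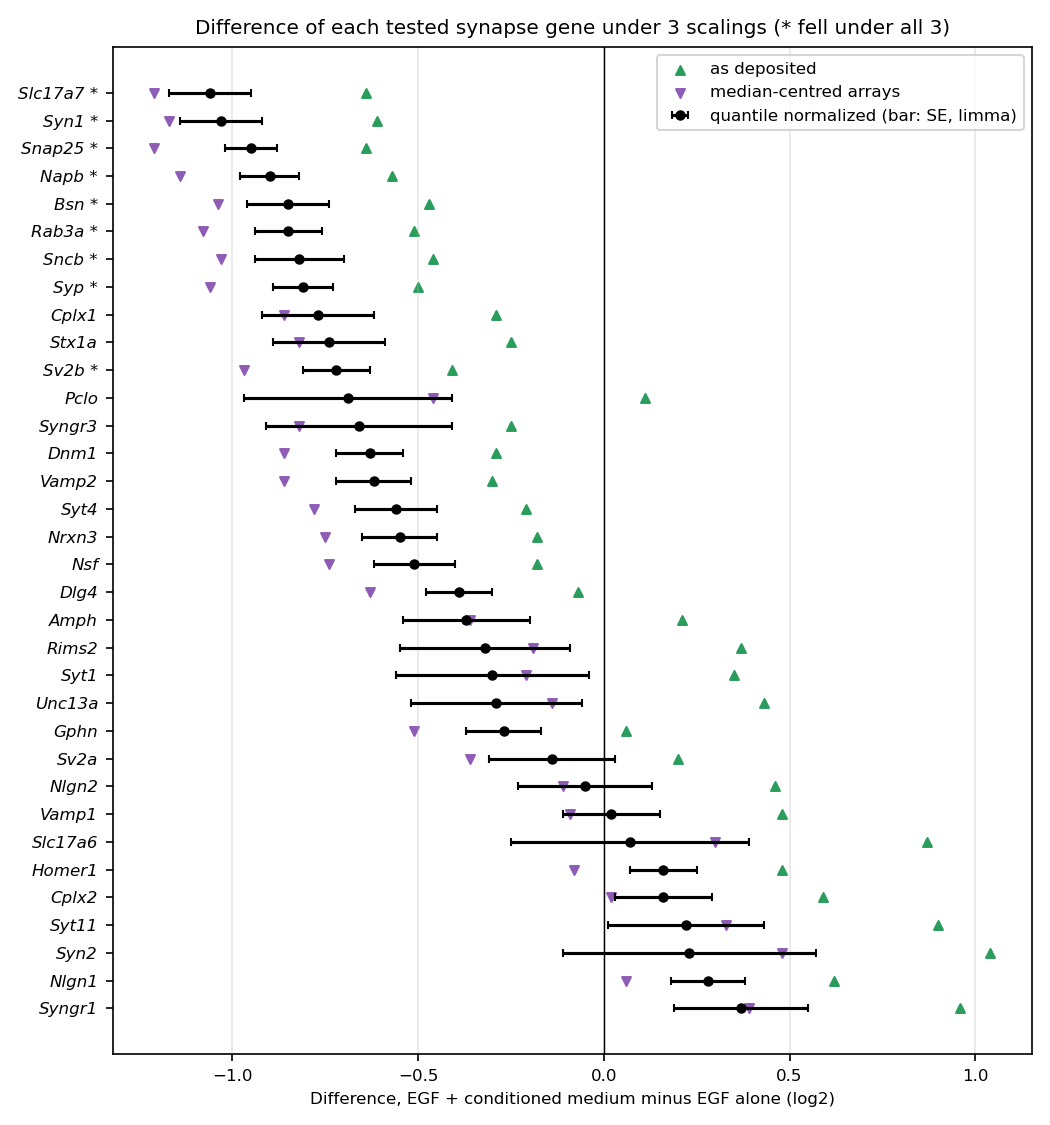
Difference in log2 level, conditioned medium minus EGF alone, for the 34 tested synapse genes under the 3 scalings, with limma's standard error on the quantile normalized value. The 9 genes that fell lie left of 0 under each scaling, while the 8 genes lower on quantile normalized values but not under all 3 scalings lie between -0.30 and -0.07 as deposited.

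Signal strength set how small a difference could be seen. The 7 tested synapse genes with a mean under 6 log2 had a median standard error of 0.26 and 0 of them fell, while the 4 genes over 10 log2 had a median standard error of 0.08 and 3 of them fell. In between, 2 of 10 genes between 6 and 8 log2 fell and 4 of 13 between 8 and 10 log2. Over all genes the share that fell was 0.242% under 6 log2, 1.2% from 6 to 8, 2.39% from 8 to 10 and 2.38% over 10 log2. The median difference of the synapse genes was also larger at higher levels, at -0.29, -0.52, -0.55 and -0.76 log2 in the same order. At a mean under 6 log2, the difference of -0.69 in Pclo went uncalled.

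Other probe sets of the same genes gave a partial check. Of the 35 genes, 20 had more than 1 probe set, with 29 further ones, 21 of them above the limit for testing. Of these 21, 16 were lower with conditioned medium, 11 of them with groups that did not overlap, and 3 were wholly higher. Over all tested genes, by their brightest probe set, 32.6% lay wholly lower and 33.6% wholly higher. As deposited, 5 of the 21 were lower. The 5 that belonged to genes that fell were all lower on both scales, with quantile normalized differences of -0.76 for Sv2b, -0.90 for Slc17a7, -0.84 for Syn1, -0.55 for Rab3a and -1.08 for Sncb. Snap25, Napb and Syp had 1 probe set each. Probe sets under the limit went the other way for Cplx1 (1.31) and for the dimmest one of Sv2b (0.76). The other probe set of Bsn, also under the limit, was at -0.07 with overlapping groups and at 0.66 as deposited. The fall of Bsn thus rests on 1 probe set. On the mean of all probe sets, Bsn (-0.46) and Sv2b (-0.24) did not pass on quantile normalized values.

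Related genes are set side by side, in 7 pairs picked and ordered after their values were seen, so that the order within a pair carries no information. The difference was -0.77 ± 0.15 log2 for Cplx1 and 0.16 ± 0.13 for Cplx2, and -0.66 ± 0.25 for Syngr3 and 0.37 ± 0.18 for Syngr1. For Vamp2 it was -0.62 ± 0.10 and for Vamp1 0.02 ± 0.13, and for Sv2b -0.72 ± 0.09 and for Sv2a -0.14 ± 0.17. Nlgn2 was at -0.05 ± 0.18 and Nlgn1 at 0.28 ± 0.10. In the remaining pairs, Syn1 and Slc17a7 were called while Syn2 (0.23 ± 0.34) and Slc17a6 (0.07 ± 0.32) were near the limit for testing, and leaving out 1 array moved Syn2 between -0.20 and 0.69 and Slc17a6 between -0.27 and 0.40. No difference between the genes of a pair was tested. On the mean of all probe sets Cplx1 was at 0.27 and Syn2 at -0.06.

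**Figure D3:**
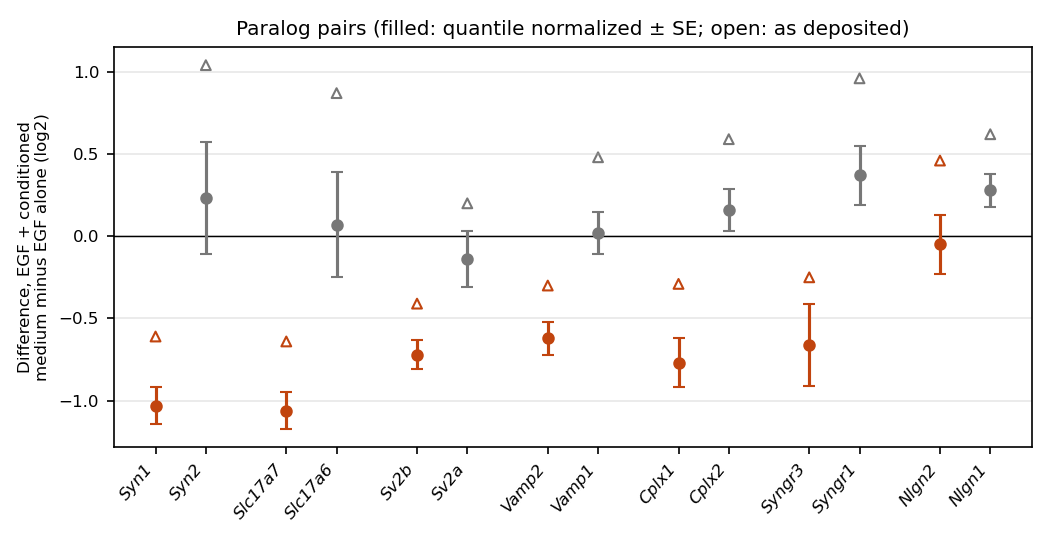
Difference in log2 level, conditioned medium minus EGF alone, for both genes of 7 related pairs, with filled points for quantile normalized values with limma's standard error and open triangles for deposited values. The bars of Syn2 and Slc17a6, both near the limit for testing, are the longest, at 0.34 and 0.32.

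Promoters of the synapse genes, whether they fell or not, were searched for letters that 2 known regulators of neuronal genes bind. REST, a repressor that silences many synaptic genes outside neurons, binds a long element (RE1), searched here by its left part TTCAGCACC and its right part GGACAGC. CREB, an activator that responds to calcium and cyclic AMP, binds TGACGTCA, or the shorter TGACG that lies within it. Both strands were searched in the RefSeq windows of build GRCr8, from 250 bases before to 50 bases after each gene's start, which were at hand for 30 of the 35 genes. There was none for Snap25, Syngr1, Syngr3, Rims2 and Nrxn3. The windows of Syn1 and Vamp1 are shown because they alone of the 30 hold TGACGTCA, which is in capitals, where Syn1 fell and Vamp1 did not. Slc17a7 is shown as the gene with the largest fall, with none of the motifs. Unc13a is shown because it holds both RE1 parts in their reverse complements, GGTGCTGAA and GCTGTCC, in capitals with 3 copies of CGTCA, the reverse complement of TGACG. They lie at chrX:3725495-3725794 on the plus strand for Syn1, chr4:159698644-159698943 on the plus strand for Vamp1, chr1:104785955-104786254 on the plus strand for Slc17a7 and chr16:18415737-18416036 on the minus strand for Unc13a, each printed 5′ to 3′ on the gene's strand.
Syn1: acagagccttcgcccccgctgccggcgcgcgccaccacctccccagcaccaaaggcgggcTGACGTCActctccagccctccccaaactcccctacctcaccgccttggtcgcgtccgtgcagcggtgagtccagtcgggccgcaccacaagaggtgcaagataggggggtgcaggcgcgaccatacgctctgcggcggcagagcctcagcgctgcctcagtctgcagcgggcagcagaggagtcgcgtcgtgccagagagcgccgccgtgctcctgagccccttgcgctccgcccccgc
Vamp1: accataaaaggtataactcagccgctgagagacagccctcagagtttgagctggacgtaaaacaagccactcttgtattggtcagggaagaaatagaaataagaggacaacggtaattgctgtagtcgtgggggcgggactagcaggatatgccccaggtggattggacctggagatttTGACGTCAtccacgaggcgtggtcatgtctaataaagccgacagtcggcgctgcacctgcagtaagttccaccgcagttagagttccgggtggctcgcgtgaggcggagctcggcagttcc
Slc17a7: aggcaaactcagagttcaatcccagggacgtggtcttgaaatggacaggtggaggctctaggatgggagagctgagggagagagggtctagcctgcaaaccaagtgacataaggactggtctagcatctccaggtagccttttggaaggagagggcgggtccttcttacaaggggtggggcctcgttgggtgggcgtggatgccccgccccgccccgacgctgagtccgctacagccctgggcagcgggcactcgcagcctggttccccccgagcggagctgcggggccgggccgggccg
Unc13a: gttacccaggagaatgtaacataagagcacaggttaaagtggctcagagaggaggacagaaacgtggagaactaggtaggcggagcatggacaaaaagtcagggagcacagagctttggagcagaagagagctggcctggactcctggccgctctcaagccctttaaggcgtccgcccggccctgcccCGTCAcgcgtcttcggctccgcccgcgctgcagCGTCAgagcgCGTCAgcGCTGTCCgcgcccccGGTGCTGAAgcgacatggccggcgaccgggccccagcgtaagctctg

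TGACGTCA began at base 61 of the Syn1 window and at base 180 of the Vamp1 window. It was present in 2 of the 30 windows and in 1.83% of all 33469 promoters. TGACG was present in 11 of the 30, including 3 of the 8 genes that fell and had a window (Syn1, Rab3a and Sncb), and in 21.2% of all promoters. The left RE1 part was in Unc13a alone and in 0.356% of all promoters. The right part was in Unc13a and Pclo and in 6.59% of all promoters, and none of the 8 windows of fallen genes held either part. The windows of the synapse genes had a median GC content of 65.8% and a median of 20 CpG dinucleotides, also over the 8 that fell, against 51.7% and 7 over all promoters. A match describes letters and is not a binding site.

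Other genes of the synapse were counted beside these. Across 6 lists of 152 further synapse genes, 117 were tested, and 8 fell (6.84%) while 7 rose (5.98%), beside 1.78% and 9.12% of all genes, with a median difference of -0.20 log2 that was 0.20 as deposited. On quantile normalized values 37 were lower (31.6%) and 14 higher. Among 35 other genes of vesicles and release, 1 fell and 5 rose. The fall was in Snap91, a clathrin adaptor of nerve terminals, which read 11.34 and 11.27 log2 with conditioned medium, against 11.97 and 12.04 log2 in EGF alone. The genes that rose included SNARE proteins found in many cell types. Vamp3 read 11.19 and 11.22 log2 with conditioned medium, against 10.44 and 10.55 log2 in EGF alone (0.71 ± 0.07, limma, adjusted p = 5.12e-05). Snap23, the broadly expressed relative of Snap25, read 8.99 and 9.02 log2 with conditioned medium, against 8.05 and 8.28 log2 in EGF alone (0.84 ± 0.11, limma, adjusted p = 1.86e-04). The groups of both genes did not overlap, and the direction was opposite to that of Snap25 and of Vamp2, which did not pass as deposited. Other SNARE genes of the list differed by 0.96 (Vamp8), 0.32 (Stx6), 0.18 (Snap29), 0.12 (Vamp7 and Stx4), -0.04 (Vamp4) and -0.24 (Stx7).

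Slc18a2, the vesicular monoamine transporter, also rose, by 1.40 ± 0.15 log2 (limma, adjusted p = 8.00e-05). Beside the counts of the lists that follow, 1.78% of all genes fell and 9.12% rose. Of 20 endocytic genes 2 fell, Dnajc6 by 0.93 and Cltb, a clathrin light chain, by 0.88 on the log2 scale, and 0 rose. Of 7 genes of ribbon synapses 2 fell, Cacna1f, the calcium channel of photoreceptor terminals, with a difference of -1.01 ± 0.12 log2, and Unc119, a photoreceptor protein, which read 11.68 and 11.80 log2 with conditioned medium, against 12.69 and 12.65 log2 in EGF alone. None of 16 other active zone genes rose or fell. On quantile normalized values 3 were lower and 0 higher, where 14.6% of all genes were lower and 16.4% higher. Of 18 other adhesion genes 2 fell (Clstn1 and Cadm3) and 2 rose (Lrrc4c and Lrfn1). Of 21 other postsynaptic genes 1 fell, the scaffold gene Shank1, by 0.88 on the log2 scale, and 0 rose.

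**Figure D4:**
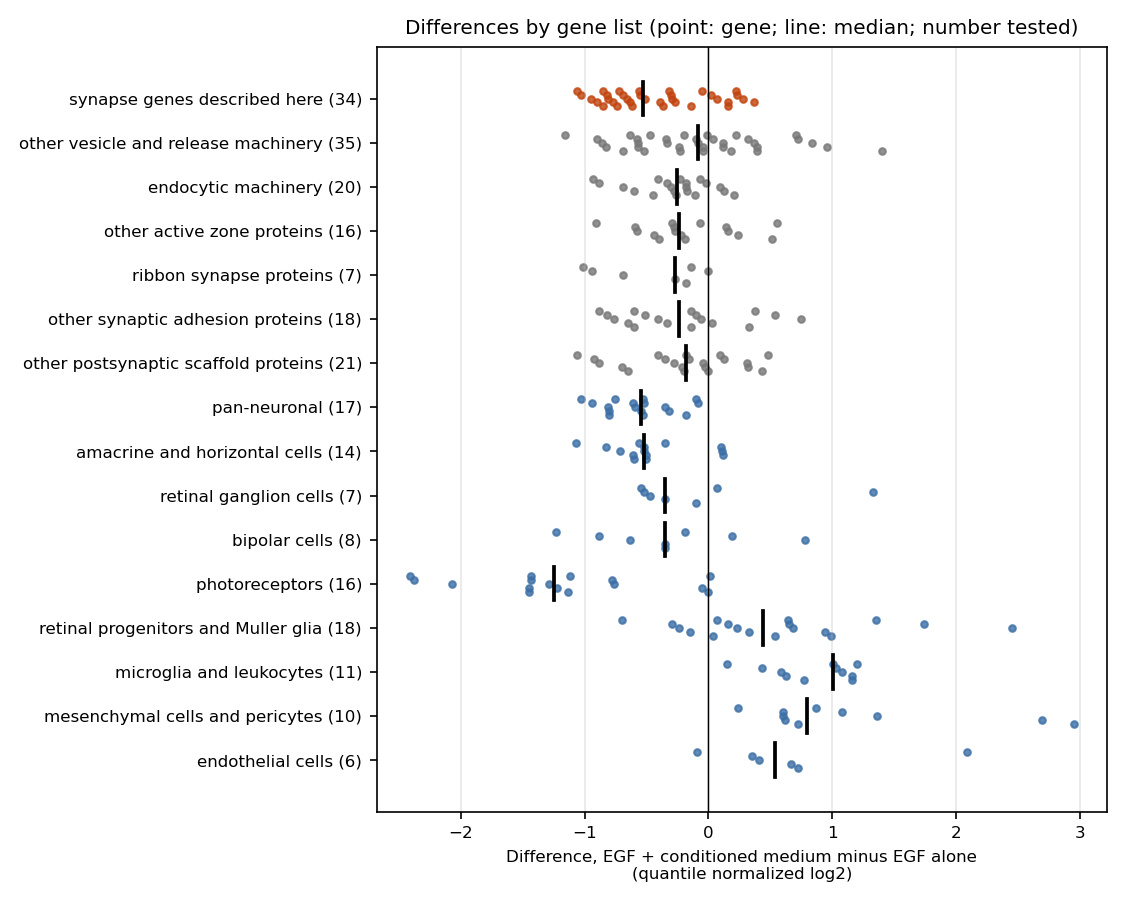
Difference in log2 level, conditioned medium minus EGF alone, on quantile normalized values for each tested gene of the synapse lists and of the larger part of the marker lists, 1 point per gene with the median of each list marked. The synapse genes have a median of -0.53, pan-neuronal markers -0.54 and photoreceptor markers -1.25, while mesenchymal markers have 0.80.

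Markers of retinal neurons were lower in the same arrays, where 1.78% of all genes fell and 14.6% were lower on quantile normalized values. Of 17 pan-neuronal markers 5 fell and 14 were lower on quantile normalized values (82.4%), with a median of -0.54 log2 beside the -0.53 log2 of the synapse genes. Among them were Stmn3, which acts on microtubules (-0.81), Mapt, which encodes tau (-0.94), and Tubb3, a neuronal tubulin (-0.75). The summed level of the 17 was 13.97 log2 in both arrays with conditioned medium, against 14.53 and 14.48 log2 in EGF alone, with no overlap. Summed levels here and below add linear intensities over every marker of a list with a probe set, also those under the limit. The brightest markers therefore weigh most in them. Photoreceptor markers were lower by more: 10 of 16 tested fell, with a median of -1.25 log2 and a summed level of 13.48 and 13.49 log2 with conditioned medium, against 14.38 and 14.43 log2 in EGF alone. Of the defining photoreceptor markers, Arr3 and Pde6b were under the limit for testing. Among 14 amacrine and horizontal cell markers 3 fell, with a summed level of 13.52 and 13.51 log2 with conditioned medium, against 14.07 and 14.09 log2 in EGF alone. Among 8 bipolar cell markers 1 fell. Among 7 tested markers of retinal ganglion cells, a list that holds Slc17a6, 1 rose and none fell, while on quantile normalized values 4 were lower and 1 higher, with a median of -0.35 log2. Pou4f1 and Thy1 were under the limit, and the summed level of the list overlapped between the conditions, at 9.91 and 9.90 log2 with conditioned medium, against 9.93 and 9.79 log2 in EGF alone.

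Markers of several other cell types were higher with conditioned medium, where 9.12% of all genes rose. Of 18 progenitor and Müller glia markers 8 rose and none fell, while on quantile normalized values 11 were higher and 3 lower. Their summed level was 15.89 and 15.88 log2 with conditioned medium, against 15.45 log2 in both arrays of EGF alone. Of 11 tested microglia and leukocyte markers 8 rose (summed 10.49 and 10.53 log2 with conditioned medium, against 9.58 and 9.70 log2 in EGF alone), with C1qb, Itgam and Cd74 under the limit. Of 10 tested mesenchymal and pericyte markers 9 rose (summed 11.27 and 11.31 log2 with conditioned medium, against 9.96 and 9.75 log2 in EGF alone), with Cspg4, Rgs5, Lum, Dcn and Prrx1 under the limit. Of 6 tested endothelial markers 2 rose (summed 12.50 and 12.48 log2 with conditioned medium, against 12.04 and 12.10 log2 in EGF alone), with Pecam1, Tek, Tie1 and Emcn under the limit. Astrocyte and oligodendrocyte markers had 1 of 8 risen, lens markers 2 of 7 and pigment epithelium markers 1 of 5. None of these markers fell, but 2 of the 5 pigment epithelium markers were lower on quantile normalized values, Dct (-0.78) and Rlbp1 (-0.7). Rlbp1 is also on the Müller glia list. The summed level of the pigment epithelium list was lower (10.27 and 10.31 log2 with conditioned medium, against 10.82 and 10.88 log2 in EGF alone). Its median difference was 0.23 log2, and its other tested markers were above 0. In samples of mixed cells, fewer neurons and less synaptic mRNA per neuron cannot be told apart. The part of these markers in the lower levels of the synapse genes was not tested.

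RNA quality readings also moved with the condition. For beta-actin, the control probe set at the 3′ end exceeded that at the 5′ end by 1.59 and 1.43 log2 with conditioned medium, against 1.89 and 2.03 log2 in EGF alone. For Gapdh this gap was 0.17 and 0.19 log2 with conditioned medium, against 0.29 and 0.28 log2 in EGF alone. The gap widens when RNA or its copies are less complete at the 5′ end, and it was wider in the EGF arrays. Its part in the results was not tested.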

How the data were processed

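Per the labels and the submitters' processing notes, the authors summarised the arrays by RMA in GenePattern and deposited log2 values for 31099 probe sets. The RMA version and its normalization setting are not given in the sources used here. Of these probe sets 57 were array controls and were left out, 20826 others had 1 symbol in the platform annotation and were used for genes, 436 had several symbols and 9831 had none. Matching to RefSeq by gene identifier (20758 probe sets) changed no symbol. The deposited medians differed between arrays, so the test was run on quantile normalized, deposited and median-centred values.

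Conditioned medium minus EGF alone was tested two-sided in limma 3.58.1 (R 4.3.3) by lmFit and eBayes with a trend on intensity, with Benjamini-Hochberg adjustment over 11491 genes, a threshold of 0.05 and no block. With 2 arrays per condition, most of each gene's variance estimate came from the other genes: the prior had 8.71 degrees of freedom on quantile normalized and 10.5 on median-centred values, and as deposited the variance came wholly from the trend with intensity. The procedure was tested on simulated data. Arrays give no read depth, and dim probe sets understate changes.

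The genes, the further synapse lists and the marker lists were chosen with earlier results of these data known. Every synapse gene with a probe set was to be named. From each further synapse list up to 4 risen or fallen genes with the smallest p were named, and from marker lists up to 3. The gene pairs were added after their values were seen. Alternatives were the scalings, the filter on dim genes, the mean of all probe sets, no intensity trend, a replicate block and leaving out each array. Same-numbered arrays did not deviate together (correlation -0.03 on quantile normalized and -0.12 on deposited values, 2 pairs).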

Additional observations from a re-analysis of the deposited data

How the results depend on the processing

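Of the 34 synapse genes, 9 fell under all 3 scalings, and the same 9 passed with no filter on dim genes and with the dimmest 50% left out. The count was 3 with the mean of all probe sets and 4 without the intensity trend. With the replicate block it was 0, since none of the 9 passed as deposited, while 9 of 9 passed on quantile normalized and on median-centred values. With the numbers of the EGF arrays exchanged in the block, an alternative added after seeing the data, it was 11. Leaving out 1 array gave 0 to 3 of the 9, or 1 to 3 genes in all, with the lone array assumed to vary like the other condition. No synapse gene rose in any of these. On quantile normalized values 17 genes were lower and 0 higher, and with the replicate block 19 were lower, Syngr3 and Gphn being added. As deposited these counts were 9 and 5, with the mean of all probe sets 11 and 1, and leaving out 1 array gave 9 to 15 lower. The count of higher genes was 1 with the dimmest 50% left out and 1 with the exchanged block. The median difference of -0.53 was -0.12 as deposited, -0.69 median-centred, -0.30 with the mean of all probe sets, and -0.55 to -0.46 leaving out 1 array. Signs turned as deposited for Syt1 (0.35), Unc13a (0.43), Sv2a (0.20), Amph (0.21), Rims2 (0.37), Pclo (0.11), Nlgn2 (0.46) and Gphn (0.06). They turned median-centred for Vamp1 (-0.09) and Homer1 (-0.08), and with the mean of all probe sets for Vamp1 (-0.07), Cplx1 (0.27), Syn2 (-0.06) and Homer1 (-0.08). Leaving out 1 array, they turned for Vamp1 (-0.09 to 0.12), Sv2a (-0.48 to 0.20), Slc17a6 (-0.27 to 0.40), Syn2 (-0.20 to 0.69) and Nlgn2 (-0.29 to 0.19). The cause was not tested. On quantile normalized values the 9 fallen genes kept their direction in each of these settings. As deposited, a dim probe set of Sv2b (1.44) and that of Bsn (0.66) went the other way. Among dim genes, low signal over background limits what could be seen.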
